A study of Mus musculus with 28 samples.

Results

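The Morc family of mouse testis is described here at the level of mRNA, transcripts, promoter sequence and meiotic DNA breaks. Its members are the 5 genes named Morc1, Morc2a, Morc2b, Morc3 and Morc4, taken by symbol from the 34839 genes of the deposited gene table, together with their 26 transcripts among 109282. All 5 were found. The series addresses what the domains of PRDM9 do in meiosis; PRDM9 is the histone methyltransferase that places recombination hotspots. Testis mRNA of C57BL/6 mice was measured in 2 libraries of Prdm9 knockout (KO) mice, 2 of Hop2 KO mice and 1 wild-type library labelled adult. Hop2 is the usual name of the gene that the files list as Psmc3ip, and its product is a partner of the meiotic recombinase DMC1. DNA breaks were mapped in 1 testis library of C57BL/6 mice that carry Prdm9 (K/K), a PRDM9 without its KRAB domain. No treatment and no age are given for the mutant mice, and which exons were deleted is not stated in these sources. It is also not stated whether replicate libraries are separate animals. All p-values therefore rest on library-to-library spread, which may be only technical.

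MORC proteins are chromatin proteins that join a GHKL-type ATPase, the fold also found in HSP90, type II topoisomerases and MutL repair proteins, to a CW zinc finger, which in several proteins binds methylated histone H3. They compact or silence chromatin, and several act on transposons. In the male germ line MORC1 is needed for transposon silencing and spermatogenesis, and MORC2B is needed for progression through meiotic prophase. Earlier studies linked transcription of Morc2b to PRDM9. MORC2A is the mouse counterpart of human MORC2, which works with the HUSH silencing complex. MORC3 gathers in nuclear bodies together with PML and SUMO. Morc4 is X-linked and its role in the testis is not well known.

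The mRNA values are the authors' TPM, a share of transcripts corrected for length, after a rescaling that is not described in the sources used here: libraries summed to between 825459 and 953598 in the knockouts and to 1622660 in wild type. They are per length, so levels of different genes can be compared, but the depth is unknown. The Hop2 labels were checked by Psmc3ip, at 22.8 and 26.4 in Prdm9 KO libraries, 3.51 and 5.06 in Hop2 KO libraries and 197 in the wild-type library. Prdm9 was listed at 4.73 and 5.93 in Prdm9 KO libraries, 10.7 and 15.0 in Hop2 KO libraries and 6.20 in the wild-type library, which checks the Prdm9 label only weakly. Markers of Sertoli, Leydig and germ cells were present in every library, as the testis label says. The composition differed widely: 9 spermatid markers summed to between 11.6 and 44.4 in the knockouts against 119468 in wild type, with 1 of them, Prm2, at 0 in Hop2 KO replicate 1. The 8 pachytene markers summed to between 174 and 201 against 9790, and the 8 Sertoli cell markers to between 3292 and 4013 against 829. In bulk libraries fewer cells of a type and less RNA per cell cannot be told apart. Of the genes that passed the test against wild type, 46.8% were higher in Prdm9 KO and 47.0% in Hop2 KO; quantile normalization gave 61.8% and 61.5%, and columns rescaled to a sum of 1000000 gave 66.0% and 64.0%.

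Morc2b, on chromosome 17, was the member that set the mutants apart from wild type. It was 1.04 and 1.84 in Prdm9 KO libraries, 0.286 and 0.477 in Hop2 KO libraries and 164 in the wild-type library. All 4 knockout libraries lay far below the wild-type library, and the Prdm9 KO values lay above both Hop2 KO values. In relation to the other genes detected in the same library, Morc2b stood above 43.9% and 48.7% of them in Prdm9 KO libraries, 32.0% and 36.1% in Hop2 KO libraries and 92.6% in the wild-type library. Its mean was 1.44 ± 0.561 (SD, n = 2) in Prdm9 KO and 0.381 ± 0.135 (SD, n = 2) in Hop2 KO, so the wild-type value was 114-fold the Prdm9 KO mean and 430-fold the Hop2 KO mean. These folds are ratios of the deposited values. On the log2(value + 1) scale, which understates changes of low genes, Morc2b fell in both, with a change of -6.10 in Prdm9 KO (standard error, SE, 0.26, limma adjusted p = 0.000322) and -6.90 in Hop2 KO (SE 0.26, limma adjusted p = 0.000230).

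Both knockouts are set against the same wild-type library, so these 2 values are not independent of each other. The wild-type group has a single library, which the fit takes to vary like the knockouts. Among the 16261 genes tested, 772 had a lower log2 change than Morc2b in Prdm9 KO and 534 in Hop2 KO. The fall moved with the loss of pachytene and spermatid markers described above: 8 of 8 pachytene and 9 of 9 spermatid markers passed the test as lower in both knockouts (7 of 8 pachytene markers with each other scaling), and their part in the fall of Morc2b was not tested. Over all genes tested, 34.6% were called higher and 39.4% lower in Prdm9 KO, and 35.0% and 39.5% in Hop2 KO. Of 8 early meiotic prophase markers, 3 were higher and 1 lower in both knockouts (7 higher with quantile normalization or rescaled columns), and their summed level was between 358 and 389 in the knockouts against 329 in wild type. Among those 8, Rec8, the meiotic cohesin subunit, changed by -2.71 in the Prdm9 KO and by -2.64 in the Hop2 KO. Stra8, which starts meiosis, rose by 1.99 in the Prdm9 KO and by 2.09 in the Hop2 KO, and Dmc1 rose by 1.71 and 1.81 (limma adjusted p between 0.000365 and 0.00145 for all 3).

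**Figure D1:**
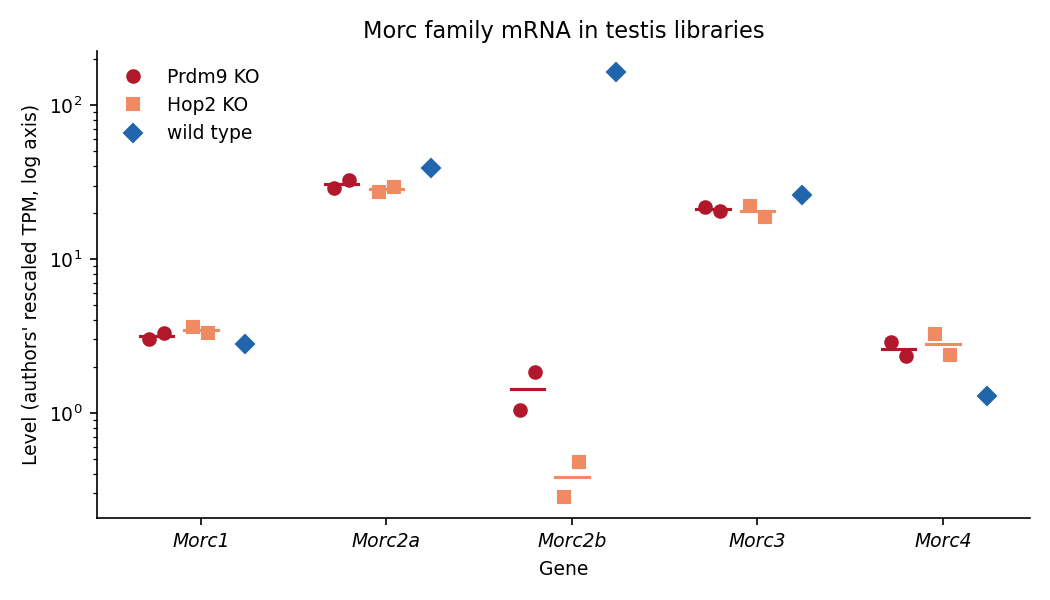
Level of each Morc gene in every mRNA library, in the authors' rescaled TPM on a log axis. Points are libraries (2 Prdm9 KO, 2 Hop2 KO, 1 wild type) and short lines are means of 2. Morc2b lies between 0.286 and 1.84 in the knockouts and at 164 in wild type, while the other 4 genes differ far less between libraries.

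Morc2b is known as a rodent copy of Morc2a that arose by retrotransposition, so the promoter windows of both were compared. RefSeq gives 2 starts for each gene on GRCm38.p6, and a window holds 250 bases before and 50 after the start, which is base 251. The downstream Morc2b window is chr17:33139634-33139933 on the minus strand, and the upstream Morc2a window is chr11:3649187-3649486 on the plus strand. They are shown because the best local alignment between the promoters of the pair joins them, over 36 columns with 31 identical bases (86.1%). Capitals mark the identical bases.
Morc2a: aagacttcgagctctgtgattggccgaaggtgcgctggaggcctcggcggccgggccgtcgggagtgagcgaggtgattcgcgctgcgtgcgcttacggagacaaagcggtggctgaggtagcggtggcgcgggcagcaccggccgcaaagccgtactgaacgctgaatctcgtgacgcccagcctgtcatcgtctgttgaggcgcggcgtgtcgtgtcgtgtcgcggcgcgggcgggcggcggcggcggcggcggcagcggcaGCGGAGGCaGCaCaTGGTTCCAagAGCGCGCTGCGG
Morc2b: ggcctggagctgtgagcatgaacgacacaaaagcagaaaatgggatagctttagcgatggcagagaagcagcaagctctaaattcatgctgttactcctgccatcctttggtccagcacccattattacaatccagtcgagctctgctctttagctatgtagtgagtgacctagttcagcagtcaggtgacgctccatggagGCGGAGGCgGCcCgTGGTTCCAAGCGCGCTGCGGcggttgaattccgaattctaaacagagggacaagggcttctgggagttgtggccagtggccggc
The aligned stretch covers bases 265 to 300 of the Morc2a window, downstream of its start, and bases 203 to 236 of the Morc2b window, upstream of its start. It ends in a shared run, AGCGCGCTGCGG, of 12 bases that 5 of the 32817 promoter windows hold on the same strand. Among all windows compared with this Morc2b window, 10 from other genes scored at least as high, 1 of them Morc2a, so the match is not particular to the pair by its score.

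The rest of the windows differ. The Morc2a window has a GC content of 70.3% and 46 CpG sites, more than 98.3% of promoter windows, whereas the Morc2b window has 54.0% and 13. The upstream Morc2b start at 33148749 has 37.7% GC and 0 CpG sites, and the downstream Morc2a start at 3658672 has 28.3% and 0. The Morc3 window has 52.7% GC and 20 CpG sites and the Morc4 window 58.7% and 16, and Morc1 was not analysed for promoter sequence here. The letters CACGTG (E-box), present in 7.15% of all windows on either strand, and TGACGTCA (CRE), present in 1.79%, occur in none of the 6 windows of the family. AACNG, the MYB core, is held by 80.3% of all windows. It occurs 3 times in the downstream and 1 time in the upstream Morc2b window, 1 time in the upstream and 2 times in the downstream Morc2a window, 2 times in the Morc4 window and 0 times in the Morc3 window. The GC box GGGCGG, held by 35.6% of windows, occurs 2 times in the upstream Morc2a window, 2 times in the Morc4 window and 1 time in the Morc3 window, and is in neither Morc2b window nor the downstream Morc2a window. Letters in a window do not show binding.

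Morc2a and Morc2b share sequence, so reads from shared stretches cannot be assigned with certainty. The split between the copies is nevertheless far apart between genotypes. The ratio of Morc2b to Morc2a, which 1 factor per library cannot change (quantile normalization can), was 0.0362 and 0.0566 in Prdm9 KO libraries, 0.0104 and 0.0163 in Hop2 KO libraries and 4.22 in the wild-type library. Nearly all of the Morc2b level came from 1 of its 2 transcripts, ENSMUST00000053896, which held 99.0% of it in Prdm9 KO replicate 2, all of it in the other 3 knockout libraries and 99.7% in wild type. That transcript had 1.04 and 1.82 in Prdm9 KO libraries, 0.286 and 0.477 in Hop2 KO libraries and 164 in the wild-type library, and it fell in Prdm9 KO and Hop2 KO, with log2 changes of -6.10 and -6.90 (limma adjusted p = 0.00119 and 0.000888).

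The family as a whole therefore had another make-up in the mutants. Its summed level was 57.5 and 60.5 in Prdm9 KO libraries, 56.5 and 54.3 in Hop2 KO libraries and 233 in the wild-type library. Without Morc2b the sums were 56.5 and 58.7 in Prdm9 KO libraries, 56.2 and 53.8 in Hop2 KO libraries and 69.2 in the wild-type library. Morc2b made up 1.81% and 3.03% of the family sum in Prdm9 KO libraries, 0.506% and 0.877% in Hop2 KO libraries and 70.4% in the wild-type library. Those shares would be the same under any scaling by 1 factor per library, though not under quantile normalization.

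The order of levels changed with it. In all 4 knockout libraries the order from high to low was Morc2a, Morc3, Morc1, Morc4 and Morc2b. In wild type it was Morc2b, Morc2a, Morc3, Morc1 and Morc4. Among neighbours in the knockout order, only Morc1 and Morc4 had means ± SD that overlapped, and they did so in both knockouts. Morc1 was 3.14 ± 0.203 and Morc4 2.62 ± 0.364 in Prdm9 KO libraries (SD, n = 2 each). In Hop2 KO libraries Morc1 was 3.48 ± 0.219 and Morc4 2.81 ± 0.603 (SD, n = 2 each). Morc4 and Morc2b also lay close in Prdm9 KO replicate 2, at 2.36 and 1.84. Morc2a made up 50.1% and 53.6% of the sum in Prdm9 KO libraries, 48.5% and 53.9% in Hop2 KO libraries and 16.7% in the wild-type library, and Morc3 made up 37.8% and 34.0%, 38.9% and 34.7%, and 11.2%.

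**Figure D2:**
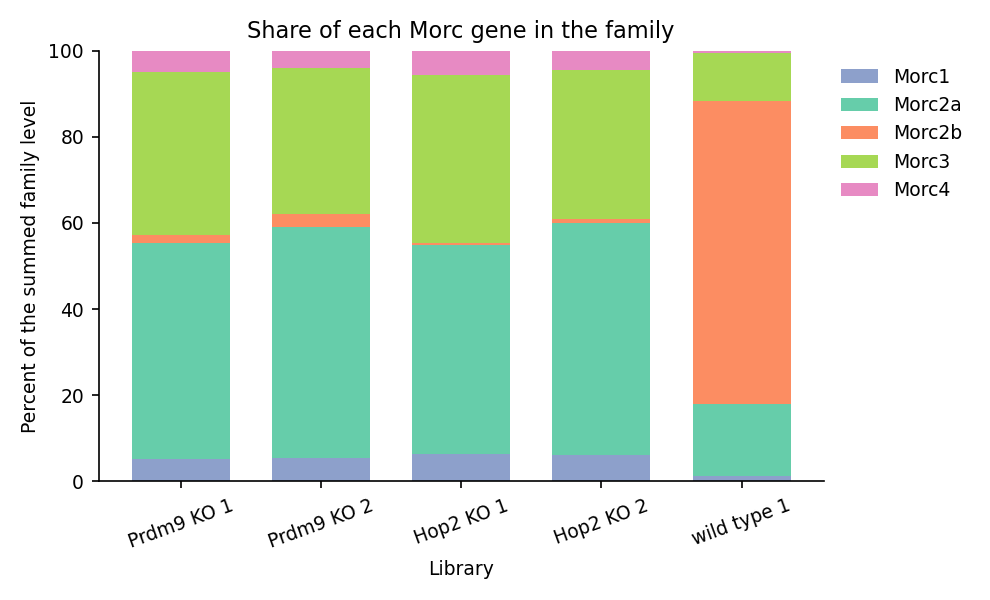
Percent of the summed Morc level carried by each gene in each of the 5 mRNA libraries, as stacked bars. Morc2b takes 70.4% in wild type and between 0.506% and 3.03% in the knockouts, where Morc2a and Morc3 together fill most of the bar.

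Against wild type, the test called 1 member higher and 1 lower in Prdm9 KO, and 1 higher and 2 lower in Hop2 KO. Over all genes, 34.6% were called higher and 39.4% lower in Prdm9 KO, and 35.0% and 39.5% in Hop2 KO, so a count of 2 or 3 among 5 members is not above the background. The median log2 change of the 5 was -0.30 in Prdm9 KO and -0.35 in Hop2 KO, beside -0.08 and -0.06 over all genes. Genes whose single wild-type value lay outside both knockout values were the rule (95.5% and 94.2% of genes), and it held for all 5 members.

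Morc4 lies on the X chromosome and was the member that rose. It was 2.87 and 2.36 in Prdm9 KO libraries, 3.23 and 2.38 in Hop2 KO libraries and 1.28 in the wild-type library, so every knockout library lay above wild type. The log2 change was 0.66 in Prdm9 KO (SE 0.20, limma adjusted p = 0.0447) and 0.73 in Hop2 KO (SE 0.20, limma adjusted p = 0.0345). The knockout means were 2.04-fold and 2.19-fold the wild-type value. The calls are near the threshold: in Prdm9 KO it was lost without Prdm9 KO replicate 1 (adjusted p = 0.144) or 2 (0.0842), and in Hop2 KO without Prdm9 KO replicate 1 (0.0661) or 2 (0.0671) or Hop2 KO replicate 1 (0.0708). It moved in the same direction as the summed Sertoli cell markers given above and the macrophage markers (339 to 593 in the knockouts against 48.4, 6 of 6 higher in both knockouts and none at 0 in any library). The summed markers of Leydig cells, spermatogonia, early meiotic prophase, peritubular myoid cells and endothelium were also higher in every knockout library, so no cell type is singled out. The part of any of them in the rise of Morc4 was not tested.

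Morc2a, whose human counterpart serves HUSH silencing, was 28.8 and 32.4 in Prdm9 KO libraries, 27.4 and 29.3 in Hop2 KO libraries and 38.9 in the wild-type library. All knockout libraries lay below wild type, and the 2 knockouts overlapped. As deposited, it fell by 0.44 in Hop2 KO (SE 0.13, limma adjusted p = 0.0422), a direction that turned with quantile normalization (0.07) and with columns rescaled to 1000000 (0.34). Leaving out any 1 of the 4 knockout libraries also ended that call (limma adjusted p between 0.0756 and 0.133). In Prdm9 KO the change of -0.34 (SE 0.13) did not pass (limma adjusted p = 0.0832).

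Morc3, the PML body ATPase, was 21.8 and 20.6 in Prdm9 KO libraries, 22.0 and 18.9 in Hop2 KO libraries and 26.2 in the wild-type library. It too was lower in each knockout library than in wild type, but the changes of -0.30 (SE 0.15) in Prdm9 KO and -0.35 (SE 0.15) in Hop2 KO did not pass (limma adjusted p = 0.148 and 0.105). Morc1, the transposon silencer, was 3.00 and 3.29 in Prdm9 KO libraries, 3.63 and 3.32 in Hop2 KO libraries and 2.81 in the wild-type library. Its changes of 0.12 and 0.23 (SE 0.12 each) did not pass either (limma adjusted p = 0.416 and 0.164).

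How these small changes read depends on the scaling of the wild-type library. The median log2 change of all genes was -0.08 in Prdm9 KO and -0.06 in Hop2 KO as deposited, 0.18 and 0.19 with median-ratio scaling, 0.58 and 0.59 after quantile normalization, and 0.77 and 0.68 after the columns were rescaled. With rescaled columns, Morc2a was 0.57 and Morc3 0.60 higher in Prdm9 KO, and both passed (limma adjusted p = 0.0303 and 0.0420). Morc1 passed as higher with quantile normalization (0.79 and 0.91 for the Prdm9 and Hop2 KO) and with rescaled columns (0.78 and 0.80). Morc4 kept its direction, at 1.46 and 1.53 after quantile normalization and at 1.19 and 1.17 after rescaling, and Morc2b fell in all of them, with changes between -6.90 and -5.13.

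Relative to the median of all genes, each member kept 1 direction under the 4 scalings. Apart from quantile normalization, the scalings differ by a single factor per library, which the median largely takes out. Agreement among those was therefore largely fixed in advance. Set against that median, Morc2b lay between -6.03 and -5.72 in Prdm9 KO and between -6.87 and -6.50 in Hop2 KO. Morc4 lay 0.42 to 0.88 above it in Prdm9 KO and 0.48 to 0.94 above it in Hop2 KO. Morc2a lay between -0.37 and -0.20 in Prdm9 KO and between -0.52 and -0.34 in Hop2 KO, and Morc3 between -0.43 and -0.17 in Prdm9 KO and between -0.49 and -0.26 in Hop2 KO. Morc1 lay 0.02 to 0.21 above it in Prdm9 KO and 0.12 to 0.32 above it in Hop2 KO.

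**Figure D3:**
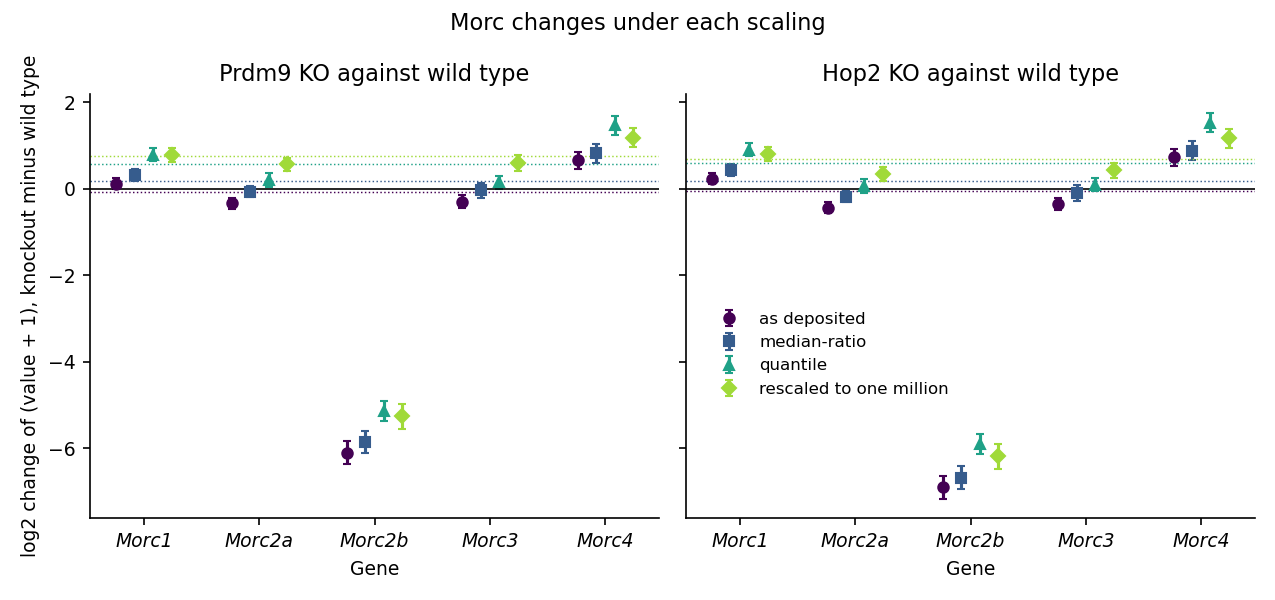
log2 change of (value + 1) of each Morc gene, knockout minus wild type, under 4 scalings of the libraries. Bars are standard errors, dotted lines the median change of all genes under each scaling; Morc2b stays below -5 throughout, while Morc2a and Morc3 cross 0.

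Prdm9 KO and Hop2 KO were compared directly to look for differences beyond the arrest that both mutants share. No member passed in this comparison, in which 0.0139% of genes were called higher and 0.00% lower. The targeted genes did not pass either. Psmc3ip changed by 2.29 (SE 0.19, limma adjusted p = 0.205) and Prdm9 by -1.12 (SE 0.21, limma adjusted p = 0.972). A gene that is not called here may therefore still differ. The nearest member was Morc2b, which averaged 3.78-fold as much in Prdm9 KO as in Hop2 KO. Its mean over the 4 libraries was below the minimum of 1, so it was tested without the filter on low values: the log2 change was 0.80 (SE 0.21, 95% interval 0.19 to 1.42), with a limma unadjusted p of 0.0229 and an adjusted p of 0.982. Among the genes tested with the filter, 3.10% had an unadjusted p under 0.05 in this comparison, and none of the other 4 members did. Morc2b is outside that base, and no such share is given for the fit without the filter. The authors' deposited table of their own test, whose groups are not named, lists Morc2b with a p of 0.00502 and a q of 1, at rank 86 of 21263 genes.

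For the other 4 members the differences were small and their intervals wide. The log2 change was -0.11 for Morc1 (95% interval -0.51 to 0.29), 0.11 for Morc2a (-0.21 to 0.42), 0.05 for Morc3 (-0.29 to 0.39) and -0.07 for Morc4 (-0.58 to 0.44), with limma adjusted p between 0.972 and 0.987. Changes within these intervals are not excluded by the data. Of the 4 members that passed the filter, the values of Prdm9 KO and Hop2 KO did not overlap for 1, Morc1, which was lower in Prdm9 KO, beside 32.9% of all genes tested. They did not overlap for Morc2b either, higher in Prdm9 KO, which is outside that base. In the authors' deposited table the other 4 have p between 0.364 and 1 and a q of 1.

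At the transcript level, 5 of the 26 were at 0 in every library and 8 reached a mean of 1. Of those 8, limma called 0 higher and 1 lower in Prdm9 KO, that of Morc2b, and 0 higher and 2 lower in Hop2 KO, that of Morc2b and ENSMUST00000093389 of Morc2a; over all transcripts tested, 24.9% were called higher and 33.9% lower in Prdm9 KO, and 25.4% and 34.6% in Hop2 KO. Between the knockouts 0 of the 7 tested passed, beside 0.00% of all transcripts in either direction. ENSMUST00000093389 carried 85.3% and 82.3% of Morc2a in Prdm9 KO libraries, 88.5% and 77.4% in Hop2 KO libraries and 84.0% in the wild-type library, and its log2 change in Hop2 KO was -0.46 (SE 0.11, limma adjusted p = 0.0408). With rescaled columns that change was 0.32, and without any 1 of the 4 knockout libraries its adjusted p was between 0.0941 and 0.127. Morc1 has a single listed transcript, ENSMUST00000023330.

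Morc3 was carried by 3 transcripts. ENSMUST00000201097 held 46.4% and 44.9% of it in Prdm9 KO libraries, 40.4% and 52.4% in Hop2 KO libraries and 52.0% in the wild-type library. ENSMUST00000202261 held 22.8% and 24.2% in Prdm9 KO libraries, 35.0% and 34.1% in Hop2 KO libraries and 31.5% in the wild-type library, so both Prdm9 KO libraries lay below the other 3. ENSMUST00000044068 held 30.5% and 29.9% in Prdm9 KO libraries, 24.1% and 13.0% in Hop2 KO libraries and 14.5% in the wild-type library, and here the Prdm9 KO libraries were highest. As levels, neither passed between the knockouts: the log2 change was -0.43 (SE 0.17) for ENSMUST00000202261 and 0.67 (SE 0.35) for ENSMUST00000044068, both with a limma adjusted p of 0.992. The second value rests on the Hop2 KO libraries: it was 1.10 without Hop2 KO replicate 1 and 0.23 without Hop2 KO replicate 2, and passed in neither (limma adjusted p = 0.467 and 0.996). How reads are divided between transcripts of 1 gene is an estimate, and its error is not in the files.

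Morc4 had another transcript make-up in the wild-type library. ENSMUST00000087401 held 43.0% and 48.6% of it in Prdm9 KO libraries, 47.5% and 45.4% in Hop2 KO libraries and 49.7% in the wild-type library. ENSMUST00000165274 held 26.3% and 22.5% in Prdm9 KO, 17.8% in each Hop2 KO library and was listed at 0 in wild type. ENSMUST00000113014 held 4.12% and 8.03% in Prdm9 KO libraries, 8.04% and 13.3% in Hop2 KO libraries and 43.4% in the wild-type library. The gene level was only 1.28 in wild type, so these shares rest on low values, and the 2 last transcripts averaged under 1 and were not tested.

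**Figure D4:**
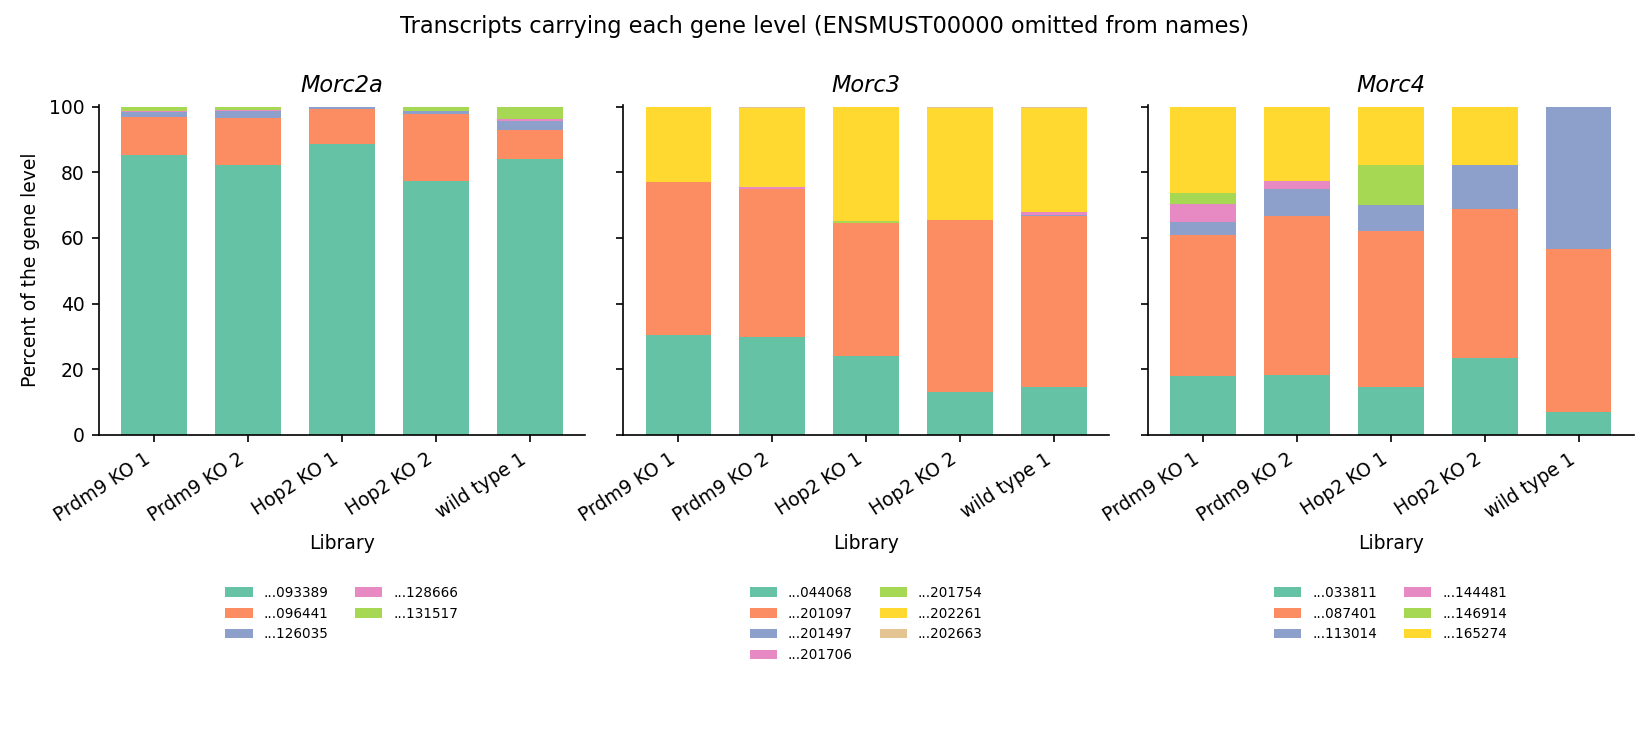
Percent of the Morc2a, Morc3 and Morc4 level carried by each transcript in each mRNA library, as stacked bars; transcripts at 0 in every library are left out. In Morc4 the wild-type bar holds 43.4% of ENSMUST00000113014 and none of ENSMUST00000165274, unlike the 4 knockout bars.

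The genes whose values over the 5 libraries lay closest to each member were found by the root mean square distance of centred log2(value + 1). For Morc2b they were Piwil1, the PIWI protein of pachytene piRNAs (0.167), Rfx4, a transcription factor (0.237), and Ankrd36 (0.243), and no other gene lay within 0.25. Piwil1 was 3.08 and 5.24 in Prdm9 KO libraries, 2.39 and 3.03 in Hop2 KO libraries and 377 in the wild-type library. It is also 1 of the 8 pachytene markers. For Morc2a the closest were Bard1, the partner of BRCA1 (0.0176), Fam76b (0.0233) and Ankrd13d (0.0328). For Morc3 they were Sox10, Cenpi and Lins1, for Morc1 Draxin, Tmem181a and Atl2, and for Morc4 Zfp958, Was and Ppp1r15b. Between 2244 and 2736 of the genes compared lay within 0.25 of each of those 4 members, so profiles like theirs were common.

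Other genes that share a domain, partner or pathway with the family were counted in the same fits, with the wild-type library again shared by both comparisons. Against wild type, 34.6% of all genes were called higher and 39.4% lower in Prdm9 KO, and 35.0% and 39.5% in Hop2 KO. List counts given for another scaling or for a left-out library have no such share beside them here. Between Prdm9 KO and Hop2 KO, 0 members of these lists passed in limma, beside 0.0139% of all genes. Of 8 HUSH and MORC2 partner genes, 1 was higher and 3 lower in Prdm9 KO and 1 higher and 4 lower in Hop2 KO, with medians of -0.54 and -0.73. Fam208b, an older symbol of Tasor2, a relative of the HUSH subunit TASOR, fell by 1.83 and 1.99, and Trim28, the corepressor of KRAB zinc finger proteins, by 1.14 in both, whereas 2810474O19Rik, an older symbol of Resf1, rose by 1.35 and 1.10 (limma adjusted p between 0.00168 and 0.0477). With 1 library left out, the list had 0 higher in Prdm9 KO without Prdm9 KO replicate 2 or either Hop2 KO library, and 0 higher in Hop2 KO without either Hop2 KO library, where 2 were lower without replicate 2. The median of the list was 0.16 and -0.06 after quantile normalization, and 0.33 and 0.03 after rescaling of the columns.

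The CW zinc finger is shared with 3 genes outside the family. Kdm1b, a histone demethylase, rose by 1.56 in the Prdm9 KO and by 1.45 in the Hop2 KO, and Zcwpw1, a reader of the histone marks that PRDM9 places, by 1.08 and 1.11. Zcwpw2 fell by 1.10 and 1.19 (limma adjusted p between 0.00696 and 0.0191 for all 3). Zcwpw2 was not called with rescaled columns, and without either Prdm9 KO library only 1 of the 3 genes passed in Prdm9 KO. Of 11 other GHKL ATPases, 4 were higher and 2 lower in each knockout, with medians of 0.44 and 0.46. Hsp90aa1, a chaperone, fell by 1.68 and 1.76, Mlh3, a subunit of the crossover nuclease, by 1.61 and 1.62, and Top2b, a topoisomerase, rose by 1.52 and 1.73 (limma adjusted p between 0.00142 and 0.0064).

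Of 9 PML body and SUMO genes, 3 were higher and 3 lower in Prdm9 KO and 5 higher and 3 lower in Hop2 KO, with medians of 0.42 and 0.64. Pml rose by 1.30 and 1.25, Daxx, a histone chaperone of PML bodies, fell by 1.09 and 0.89, and Hipk2, a kinase, fell by 0.82 and 1.48 (limma adjusted p between 0.00292 and 0.037). With rescaled columns none of the 9 was called lower in either knockout. Genes called higher numbered 1 in Prdm9 KO without its replicate 1, 2 without its replicate 2, and 3 in Hop2 KO without Hop2 KO replicate 1. Of 16 genes of germline transposon silencing, 2 were higher and 11 lower in each knockout, with medians of -1.65 and -1.71, and those medians stayed below 0 under each scaling. In Prdm9 KO and Hop2 KO, Gtsf1, a piRNA factor, changed by -5.00 and -4.92, Mael, a nuage protein, by -3.62 and -3.57, and Ddx4, the germ cell RNA helicase, by -3.01 and -2.97 (limma adjusted p between 8.68e-05 and 0.000749). These counts stand beside 34.6% of all genes called higher and 39.4% lower in Prdm9 KO, and 35.0% and 39.5% in Hop2 KO. The shares called in either direction were 74.1% for the Prdm9 KO and 74.5% for the Hop2 KO. The pachytene and spermatid markers moved with the list genes called lower, and their part was not tested.

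Meiotic breaks give a second readout at these genes. In the Prdm9 (K/K) testis, sequencing of single-stranded DNA, which captures DNA bound by DMC1 at resected breaks, gave 17731 peaks and 2652951 unique fragments, from 1 library and so with no test. The peaks are the authors', called with MACS2 per the submitters' processing notes. A peak lay at a start of Morc2a, Morc3 and Morc4, and at the low-coordinate end of Morc1, whose strand is not given in the table used. None lay at Morc2b. Among protein-coding genes, 46.0% have a peak within 1 kb of a start, and 44.5% of starts and 45.5% of genes by either end do, so 4 of 5 members is a description of a common state.

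At Morc4 (chrX:139821635-139871692) the peak chrX:139870673-139872521 held 29 unique fragments and was centred 57 bases downstream of the start. At Morc3 (chr16:93832121-93876077) the peak chr16:93830282-93833744 held 39 and spanned the start, and at Morc2a (chr11:3649189-3690477) the peak chr11:3647839-3650229 held 27. These last peaks also cover an end of a noncoding neighbour, Gm30881 at Morc3 and Tug1 at Morc2a. At Morc1 (chr16:48431237-48630905) the peak chr16:48430159-48431756 held 15. All coordinates are on GRCm38.

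At Morc2b (chr17:33135588-33150499) the nearest peak lay 45595 bases from the downstream start, and 0 peaks lay within 20 kb of the gene. Within 1 kb of a start, 8 unique fragments fell at the downstream and 1 at the upstream start of Morc2b, 16 and 1 at the upstream and downstream starts of Morc2a, 23 at Morc3, 29 at Morc4 and 15 at the Morc1 end. The median was 30 for starts with a peak and 2 for starts without one. The 8 fragments at the downstream Morc2b start are thus above the median of 2 without a peak having been called. Where a peak lay, the 15 at Morc1, 16 at Morc2a, 23 at Morc3 and 29 at Morc4 are below the median of 30.

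**Figure D5:**
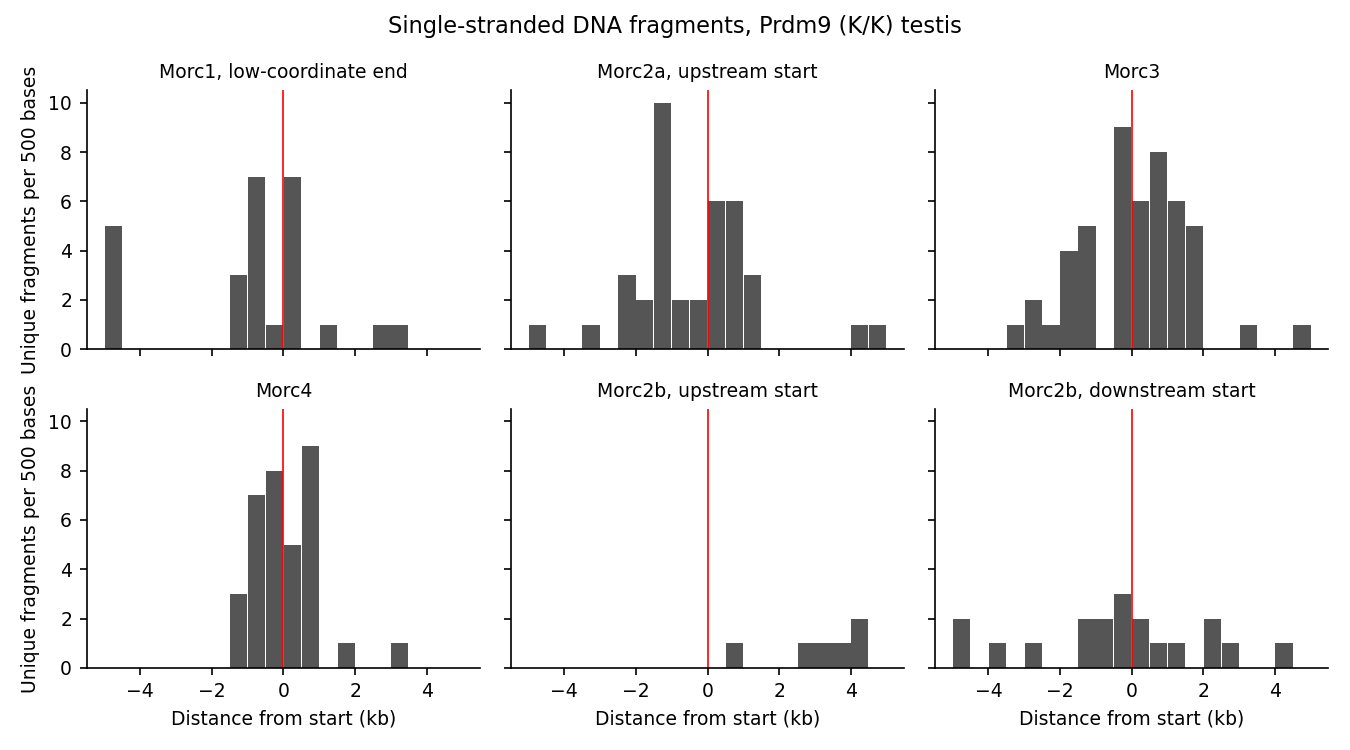
Unique single-stranded DNA fragments per 500 bases within 5 kb of the starts shown in the 1 Prdm9 (K/K) testis library, by distance from the start in kb. Negative values are upstream, and for Morc1 on the low-coordinate side. The downstream Morc2a start, with 1 fragment within 1 kb, is not drawn. Fragments gather around the upstream Morc2a start, the starts of Morc3 and Morc4 and the Morc1 end. There are fewer at the Morc2b starts, where 8 lie within 1 kb of the downstream and 1 within 1 kb of the upstream start.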

How the data were processed

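Of 28 samples, 6 were used (5 testis mRNA libraries and 1 library of single-stranded DNA) and 22 were not used here. Genotypes and titles in the labels gave the groups. The mRNA values are a signal the authors deposited as TPM for genes and transcripts. The submitters' processing notes name kallisto and sleuth, besides CASAVA, and the builds GRCm38 and mm10; tool versions were not given there. Their columns do not sum to 1000000, so they were treated as rescaled values of unknown depth, and no count model was run. The p-values and q-values in the authors' deposited table come from sleuth. Peaks and fragments were deposited as coordinates, with MACS2 2.1.0.20150420 per the submitters' processing notes, and carry no score. The fragment counts here were made from the deposited lines, with repeated lines taken once.

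The test was limma 3.58.1 (R 4.3.3) with an intensity trend. It was run on log2(value + 1) for features with a mean of at least 1, with Benjamini-Hochberg adjustment over all of them and a threshold of 0.05. The knockouts were compared in 4 libraries, and both wild-type contrasts came from 5. The procedure was tested on simulated data, in which all genes were given the same spread on the log2 scale. Symbols, starts and promoters are from RefSeq GRCm38.p6; 4 of 5 members had a promoter entry. Named genes are all members, the targeted genes, up to 3 members per list with the largest change past the threshold against wild type in either knockout, and the 3 nearest profiles per member. The members, lists and tests were chosen with earlier results of these data known. Alternatives were other pseudocounts, filters, scalings, fits, left-out libraries and peak settings. The number of value columns left unused was 0. Where a symbol has several rows, the one with the highest mean was used.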

Additional observations from a re-analysis of the deposited data

How the results depend on the processing

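Results against wild type rest on 1 wild-type library, on a scaling that the sources do not describe and on mutants whose age is not stated, and the depth is unknown. Morc2b passed as lower in both knockouts under each alternative run, between -8.44 (Hop2 KO, pseudocount 0.1) and -4.72 (Prdm9 KO, pseudocount 5) on the log2 scale. Morc4 kept its direction against wild type. Its call was lost in Prdm9 KO with a pseudocount of 0.1 (0.97, limma adjusted p = 0.0503) or 5 (0.28, 0.0647), and without the filter on low values in Prdm9 KO (0.66, 0.0922) and Hop2 KO (0.73, 0.0753). With 1 library left out, it ranged from 0.56 to 0.76 in Prdm9 KO and from 0.57 to 0.89 in Hop2 KO, and the call of Morc2a in Hop2 KO was lost throughout, at -0.49 to -0.40. That call was also lost without the filter (-0.44, limma adjusted p = 0.0505) and with median-ratio scaling (-0.18, 0.249).

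Rescaling the columns turned Morc2a and Morc3 to 0.57 and 0.60 in Prdm9 KO and 0.34 and 0.42 in Hop2 KO, and ENSMUST00000093389 to 0.32. Quantile normalization turned Morc2a and Morc3 to 0.21 and 0.15 in Prdm9 KO and 0.070 and 0.095 in Hop2 KO. Morc1 then passed as higher at 0.78 and 0.80 (rescaled) and 0.79 and 0.91 (quantile). These scalings shift all genes, as their medians show. Genes called lower were 12045 and 12121 without the filter, which tests more genes, against 6412 and 6419, and 4269 in Prdm9 KO with rescaled columns.

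Between the knockouts, genes called higher were 1 with a pseudocount of 5, 0 without the filter (the main count was 2), 0 with all 5 libraries in the fit, and 2 to 11 with 1 library left out, 11 of them without Prdm9 KO replicate 2 and 4 without Hop2 KO replicate 2; genes called lower were 0 to 1. Morc4 turned to 0.020 with rescaled columns and ranged from -0.23 to 0.095 with 1 library left out, and Morc3 from -0.052 to 0.16, and neither passed. The replicate block called 8 genes higher and none of the 4 members that passed the filter. With the replicate block and no filter, an alternative chosen after seeing the data, it called 0 genes higher and 0 lower, and Morc2b stayed at 0.80 (limma unadjusted p = 0.00845, adjusted p = 0.740). In this comparison same-numbered libraries deviated together at a correlation of 0.413 across 14358 genes in 2 pairs, and the labels do not state pairs.

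Without the filter, 21 Morc transcripts were tested instead of 8. The share called over all transcripts is not given here for that setting, for rescaled columns or for left-out libraries. The numbers called in those settings are therefore not results about the family. Without the filter, the number of Morc transcripts called was 7 of 21 in Prdm9 KO and 6 of 21 in Hop2 KO, and with rescaled columns 2 of 8 in Prdm9 KO. With 1 library left out it was 1 to 2 in each, 2 in Prdm9 KO without either Hop2 KO library, and 1 in Hop2 KO without either Prdm9 KO library or Hop2 KO replicate 1. The deposited peaks carry no score. Peaks above the median of unique fragments per kb, chosen after seeing the data, were therefore used in place of those with high scores. With them, 1 of the 5 genes, Morc4, had a peak at its start, against 4. The share of all genes with such a peak is not given here, so the drop is not a result about the family. The planned comparison of proteins was not run. The cause of these changes was not tested where no reason is given.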
